A study of Mus musculus with 8 samples.

Results

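The 8 genes described here act in cholesterol synthesis: Hmgcs1, Mvd, Idi1, Fdft1, Sqle, Sc5d and Dhcr7 code for enzymes of the pathway and Insig1 for a sterol-responsive regulator of it. They were taken as a list, and each was represented by its brightest probe, by mean log2 intensity over all arrays, among the probes that the platform annotation gives exactly 1 gene symbol. All 8 had such a probe, of 13840 genes with one in the series. Idi1 had 2 probes and each of the other members had 1.

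Cells build cholesterol from acetyl-CoA through mevalonate, isoprenoid units and squalene, and the liver is a main site of this synthesis in the body. When sterols in the endoplasmic reticulum are scarce, SCAP escorts the SREBP transcription factors to the Golgi, where they are cut and released to switch on most genes of the pathway. When sterols are plentiful, INSIG proteins hold SCAP back. The brain makes its own cholesterol behind the blood-brain barrier, and oligodendrocytes use much of it for myelin.

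The study measured RNA from hypothalamus and liver of male mice on single-channel arrays. One strain was C57BL/6J (B6). The other was the congenic B6.CAST-17, homozygous for donor sequence of chromosome 17 in a B6 genome. The diets were LabDiet chow and a choice of 78% carbohydrate or 78% fat, each with 22% protein, called choice below. Per the design text, 20 to 25 mice of a strain went through 10 days of diet selection, and those with the most divergent nutrient intake were kept. They had chow for 6 weeks and the choice again for 1 day, and sampling fell 4 h before lights went out on day 2, a time the text ties to the choice. Each array held RNA pooled from 6 mice, and each of the 8 combinations of tissue, strain and diet had 1 array, so no pool was repeated. The labels give no age, and the pools hold mice picked for divergent intake and not drawn at random. None of the 8 genes lies on chromosome 17, where the donor segment is. The design text asks which genes differ between the strains under each diet.

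The deposited intensities of the 2 strains of a tissue and diet followed a common distribution, with medians of 559.6 and 1337.5 for hypothalamus on chow and on choice, and 700.0 and 701.8 for liver. A diet comparison therefore crosses 2 scalings, and diet and scaling cannot be told apart. Levels below are log2 intensity after quantile normalization over the 4 arrays of a tissue, unless stated. Differences are from limma, with the standard error (SE) of the fit, and were tested over 19807 probes in each tissue at an adjusted p of 0.05. The error of these tests comes from how far matched pairs of pools disagree, and limma moderates it with the spread of all probes tested. The pairs supply 2 residual degrees of freedom, of a total of 8.02 in liver and 8.57 in hypothalamus. Without a trend of the spread on level, the SE of Insig1 for liver diet was 0.27 and not 0.16. A p-value thus reflects the scatter of these pools, over all probes as well as the gene's own, and nothing wider. The number of arrays limits the precision. All 8 genes had a mean level above the filter for dim probes in both tissues. In liver the summed level of the 4 measured hepatocyte markers of 8 listed was 21.77 to 22.38, against 10.53 to 12.49 in hypothalamus. The 7 measured neuron markers of 8 summed to 19.56 to 19.95 in hypothalamus and 13.72 to 14.49 in liver. Both sums match the tissue labels, but Snap25, a neuron marker, overlapped between tissues (7.55 to 9.26 in hypothalamus, 8.03 to 8.68 in liver). The 4 measured astrocyte markers of 7 summed lower in hypothalamus (15.30 to 15.89) than in liver (18.96 to 19.36). Of these, limma called 2 higher and 2 lower in liver.

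**Figure D1:**
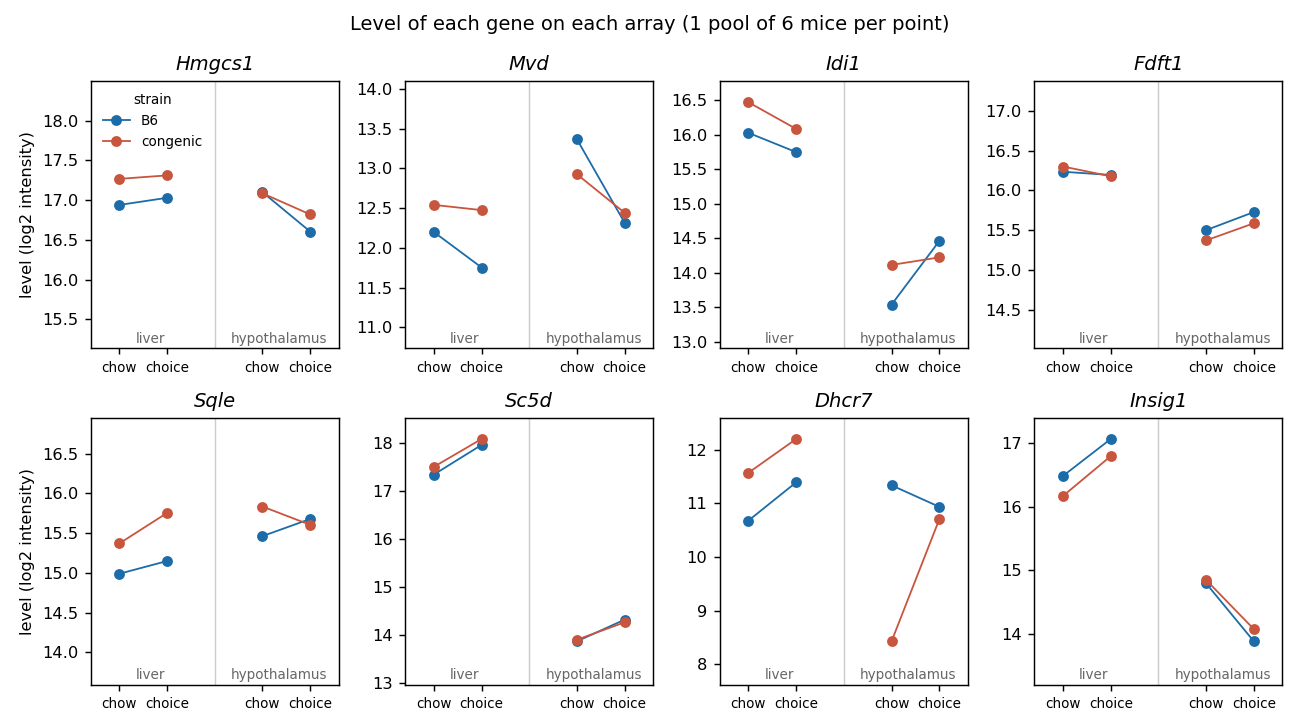
Level of each gene on each array, in log2 intensity after quantile normalization within a tissue, so heights may be compared within a tissue only. Each point is 1 pool of 6 mice, and lines join the chow and choice pools of a strain (blue, B6; red, congenic). In both strains Insig1 is higher on choice in liver and lower on choice in hypothalamus, and Dhcr7 has 1 low point at 8.43 in hypothalamus.

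In liver, Insig1, Sc5d and Dhcr7 were about 1.5-fold higher after the choice than on chow in both strains. Mvd and Fdft1 were lower in both strains by smaller amounts, the 2 Idi1 probes disagreed, and Sqle and Hmgcs1 were higher by smaller amounts. limma called 0 of the 19807 probes, or 0% (lowest adjusted p 0.125, with 1731 probes under 0.05 before adjustment), so none of the 8 passed. The median difference of the 8 genes was 0.17, against -0.01 over all probes tested. Dhcr7 was at least 1.5-fold higher in both strains, as were 5.92% of all probes tested. No member was that much lower in both, where the background was 5.74%.

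Insig1, which retains SCAP in the endoplasmic reticulum and is itself switched on by SREBP, had liver levels of 16.48 in B6 and 16.17 in congenic pools on chow, and of 17.06 and 16.79 on choice. Both choice livers lay above both chow livers. The difference was 0.60 ± 0.16 SE (95% interval 0.25 to 0.96, adjusted p = 0.361), made of 0.58 in B6 and 0.63 in congenic pools. Sc5d, the lathosterol oxidase that places the ring double bond late in the pathway, had levels of 17.35 and 17.51 on chow and 17.97 and 18.09 on choice. Here too the choice livers were the higher ones in each strain, with no overlap. Its difference was 0.60 ± 0.15 SE (95% interval 0.25 to 0.95, adjusted p = 0.360), with 0.62 in B6 and 0.58 in congenic pools.

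When the spread was taken from the 4 liver arrays alone, with 1 residual degree of freedom, both genes passed in limma. Insig1 then had an adjusted p of 0.0199 and Sc5d of 0.0320. In that fit 340 probes were called higher on choice, 1.72% of those tested, and the members called were these 2 of 8. The calls thus depend on which arrays supply the error, while the sizes do not.

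Dhcr7 codes for the reductase that ends a route to cholesterol. Its liver levels were 10.68 in B6 and 11.57 in congenic pools on chow, and 11.39 and 12.20 on choice. The B6 choice pool was below the congenic chow pool, so the diets overlapped across strains although each strain was higher on choice. The difference of 0.67 had an SE of 0.67 (95% interval -0.88 to 2.23, adjusted p = 0.831). That SE also holds the spread of Dhcr7 between the hypothalamus pools, given further on, and with liver alone it was 0.36 (adjusted p = 0.396).

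Hmgcs1, which condenses acetoacetyl-CoA and acetyl-CoA to HMG-CoA, had liver levels of 16.94 and 17.27 on chow and 17.03 and 17.31 on choice, in B6 and congenic pools in turn. Both congenic livers lay above both B6 livers, and the diets overlapped. The diet difference was 0.07 ± 0.15 SE (95% interval -0.29 to 0.42), and with median centring or with the deposited scale it turned to -0.04. Mvd, which makes isopentenyl diphosphate by decarboxylation, was at 12.20 and 12.54 on chow and at 11.75 and 12.48 on choice. The B6 choice pool was the low one. Its difference was -0.26 ± 0.30 SE, with -0.45 in B6 and -0.07 in congenic pools.

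Idi1 turns isopentenyl diphosphate into its isomer, the starter unit of isoprenoid chains. Its brightest probe read 16.03 and 16.47 on chow and 15.75 and 16.08 on choice in liver. Both strains were lower on choice, with a difference of -0.33 ± 0.21 SE. The other Idi1 probe read 16.01 and 15.99 on chow and 16.08 and 15.95 on choice. That probe differed by 0.02 ± 0.16 SE, so the 2 probes disagreed and no direction can be given for Idi1.

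Fdft1, the squalene synthase that commits isoprenoids to sterols, read 16.23 and 16.30 on chow and 16.19 and 16.18 on choice. It had the narrowest range of the 8 genes in liver, 0.12, and a diet difference of -0.08 ± 0.15 SE (95% interval -0.43 to 0.27). Sqle, the squalene epoxidase and a slow step of the pathway, read 14.99 and 15.37 on chow and 15.15 and 15.75 on choice. The congenic pools were higher within each diet and the diets overlapped. The diet difference was 0.27 ± 0.18 SE, with 0.16 in B6 and 0.38 in congenic pools.

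**Figure D2:**
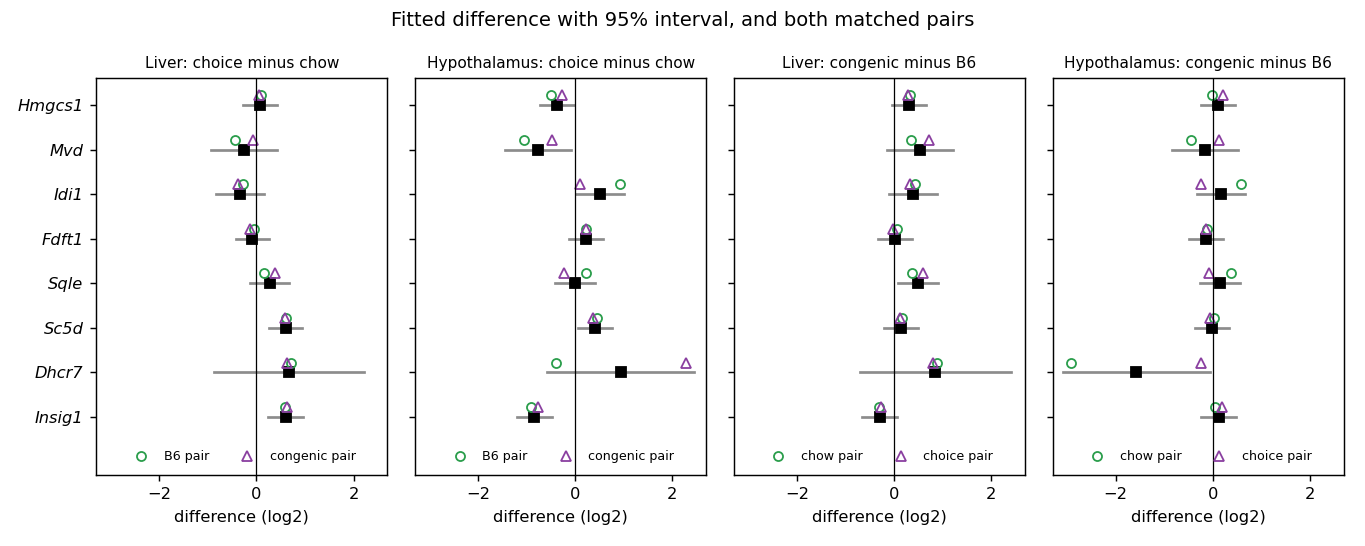
Difference of each gene in 4 comparisons, in log2 units. Squares are the fitted difference with its 95% interval as a grey line, and open circles and triangles are the 2 matched pairs of pools it averages. Intervals clear of 0 are those of Insig1 and Sc5d for liver diet, Sqle for liver strain, Dhcr7 for hypothalamus strain, and Insig1, Mvd, Hmgcs1 (below 0), Sc5d and Idi1 (above 0) for hypothalamus diet. The widest intervals are those of Dhcr7.

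Promoter sequences are shown for Insig1 and Sc5d, which differed alike between the liver diets, and for Hmgcs1, an early enzyme whose liver diet difference was near 0. They are RefSeq windows of build GRCm38.p6 from 250 bases before to 50 after a gene's start, read 5′ to 3′ on the gene's strand: chr5:28071162-28071461 (plus strand) for Insig1, chr9:42264251-42264550 (minus strand) for Sc5d and chr13:119690101-119690400 (plus strand) for Hmgcs1. Capitals mark matches on either strand to a sterol regulatory element, TCACNCCAC, and to the CCAAT box, which reads ATTGG on the other strand. The 2 motifs did not overlap in these windows.
Insig1: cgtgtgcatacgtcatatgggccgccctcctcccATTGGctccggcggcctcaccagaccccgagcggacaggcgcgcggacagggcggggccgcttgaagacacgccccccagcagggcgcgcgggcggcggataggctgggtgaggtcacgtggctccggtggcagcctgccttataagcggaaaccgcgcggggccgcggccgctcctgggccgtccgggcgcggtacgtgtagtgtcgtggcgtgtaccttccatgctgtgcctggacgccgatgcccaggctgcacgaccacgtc
Sc5d: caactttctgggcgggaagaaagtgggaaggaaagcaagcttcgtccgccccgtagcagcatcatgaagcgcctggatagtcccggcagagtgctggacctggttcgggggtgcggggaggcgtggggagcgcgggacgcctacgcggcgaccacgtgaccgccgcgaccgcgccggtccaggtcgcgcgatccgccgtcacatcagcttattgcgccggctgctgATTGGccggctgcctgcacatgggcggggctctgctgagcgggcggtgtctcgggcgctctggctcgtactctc
Hmgcs1: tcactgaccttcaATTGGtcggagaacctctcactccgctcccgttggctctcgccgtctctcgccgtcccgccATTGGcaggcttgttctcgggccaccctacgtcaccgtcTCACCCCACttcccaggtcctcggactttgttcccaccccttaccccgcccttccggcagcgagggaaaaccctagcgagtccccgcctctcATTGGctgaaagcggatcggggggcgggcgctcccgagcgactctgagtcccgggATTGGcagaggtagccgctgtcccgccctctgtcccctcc

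Windows were found for 6 of the 8 genes, Insig1, Sc5d, Hmgcs1, Idi1, Dhcr7 and Mvd. The sterol regulatory element as spelled matched in the window of Hmgcs1, with its first base at position -137 from the start, and in none of the other 5. Of all 32851 windows, 1.24% held it. The 6 genes had 8 windows, since Dhcr7 had more than 1. A CCAAT box was in 6 of these 8 and in 37.4% of all windows. The GC box GGGCGG was in 7 of the 8 and in 35.7% of all windows. Each of the 6 genes had a window with a CCAAT box and a window with a GC box. Hmgcs1 held 4 CCAAT matches, and Insig1 and Sc5d held 1 each. A match is a run of letters and not a shown binding site.

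Other genes of the pathway and its control were read from lists beside the 8 genes. Srebf2, Fdps and Lss were not analysed here. Of 7 other synthesis enzymes tested of 14 listed, 0 passed in liver in either direction, and their median diet difference was 0.07. The lanosterol demethylase Cyp51 read 14.61 and 14.25 on chow and 14.57 and 14.44 on choice, a difference of 0.07 ± 0.20 SE. Ebp, the sterol isomerase that acts before Sc5d, was lower by 1.5-fold or more in both strains, at -0.70 ± 0.54 SE (adjusted p = 0.758). Lbr, a sterol reductase of the nuclear envelope, differed by 0.44 ± 0.40 SE, and Hsd17b7, a ketoreductase of the pathway, by 0.22 ± 0.24 SE.

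Of 7 genes of the SREBP and sterol sensing machinery tested of 12 listed, 0 passed in liver. Srebf1, which codes for SREBP-1, read 17.74 and 17.44 on chow and 18.35 and 18.11 on choice. It was higher on choice in both strains without overlap, by 0.64 ± 0.15 SE (adjusted p = 0.307). The order of its 4 livers was that of Insig1, with B6 above congenic within each diet. How many of all probes have that order was not counted, and a link between the 2 genes was not tested. Insig2, the relative of Insig1, read 14.91 and 14.63 on chow and 15.78 and 15.24 on choice, a difference of 0.74 ± 0.20 SE (adjusted p = 0.377). A dimmer Insig2 probe gave 0.25 in B6 and 0.39 in congenic pools. Scap differed by 0.06 ± 0.17 SE. Mbtps2, the protease that makes the last cut of SREBP, differed by -2.26 ± 0.59 SE (adjusted p = 0.370). Its choice levels of 8.58 and 8.60 were under the filter level of 9.04, so the size depends on values near the floor. Erlin2, a membrane protein of the endoplasmic reticulum, differed by -1.20 ± 0.82 SE.

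Of 7 fatty acid synthesis genes driven by SREBP-1c tested of 10 listed, 0 passed. In this list 5 were higher on choice in both strains, as were 29.3% of all probes tested, and 0 lower in both, as were 30.9%, and the median difference was 0.80. The other 2 were split. One of them, the desaturase Scd1, read 17.488 and 17.554 on chow and 16.125 and 17.873 on choice, so it was lower on choice in B6. Fasn, the fatty acid synthase, read 15.94 and 16.08 on chow and 16.86 and 17.71 on choice, a difference of 1.27 ± 0.24 SE (adjusted p = 0.215). Thrsp, a lipogenic nuclear protein, differed by 1.17 ± 0.18 SE (adjusted p = 0.175) and the desaturase Fads2 by 0.88 ± 0.17 SE (adjusted p = 0.220). In the list for cytosolic acetyl-CoA and NADPH supply the median of 5 genes tested was 0.59. Acly, which makes cytosolic acetyl-CoA from citrate, differed by 0.54 in B6 and 1.67 in congenic pools. Acss2, which makes it from acetate, differed by 0.15 and 1.09, and the malic enzyme Me1 by 0.11 and 1.08, so these 3 genes were further apart between diets in the congenic pools. That strain by diet difference has no error term in these data.

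Lists on the fate of cholesterol had medians below 0 in liver, with 0 genes passing. The 6 uptake and transport genes tested had a median of -0.22, with Npc1, which exports cholesterol from lysosomes, at -0.72 ± 0.60 SE, the receptor Lrp1 at -0.42 ± 0.23 SE and the HDL receptor Scarb1 at 0.41 ± 0.25 SE. The 8 efflux and LXR genes had a median of -0.19. In that list Mylip, a ubiquitin ligase induced by LXR, differed by -0.84 ± 0.27 SE (adjusted p = 0.428), the sterol exporter Abcg1 differed by -0.39 ± 0.38 SE and Apoe by -0.25 ± 0.20 SE. Among 4 esterification and hydroxylation genes with a median of -0.12, Cyp46a1, a cholesterol hydroxylase best known from neurons, was higher by 1.20 ± 0.21 SE (adjusted p = 0.191). The bile acid hydroxylases Cyp8b1 and Cyp27a1 differed by -0.45 ± 0.21 SE and -0.10 ± 0.23 SE. Of the isoprenoid branches, 3 genes were tested with a median of -0.40: the farnesyltransferase subunit Fntb at -1.19 ± 0.60 SE, the dolichol enzyme Dhdds at -0.40 ± 0.47 SE and the geranylgeranyl diphosphate synthase Ggps1 at 0.42 ± 0.41 SE. The choice levels of Fntb, 8.75 and 8.46, were under the filter level of 9.04, so its size depends on values near the floor. A dimmer Fntb probe gave 1.35 in B6 and -0.29 in congenic pools.

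**Figure D3:**
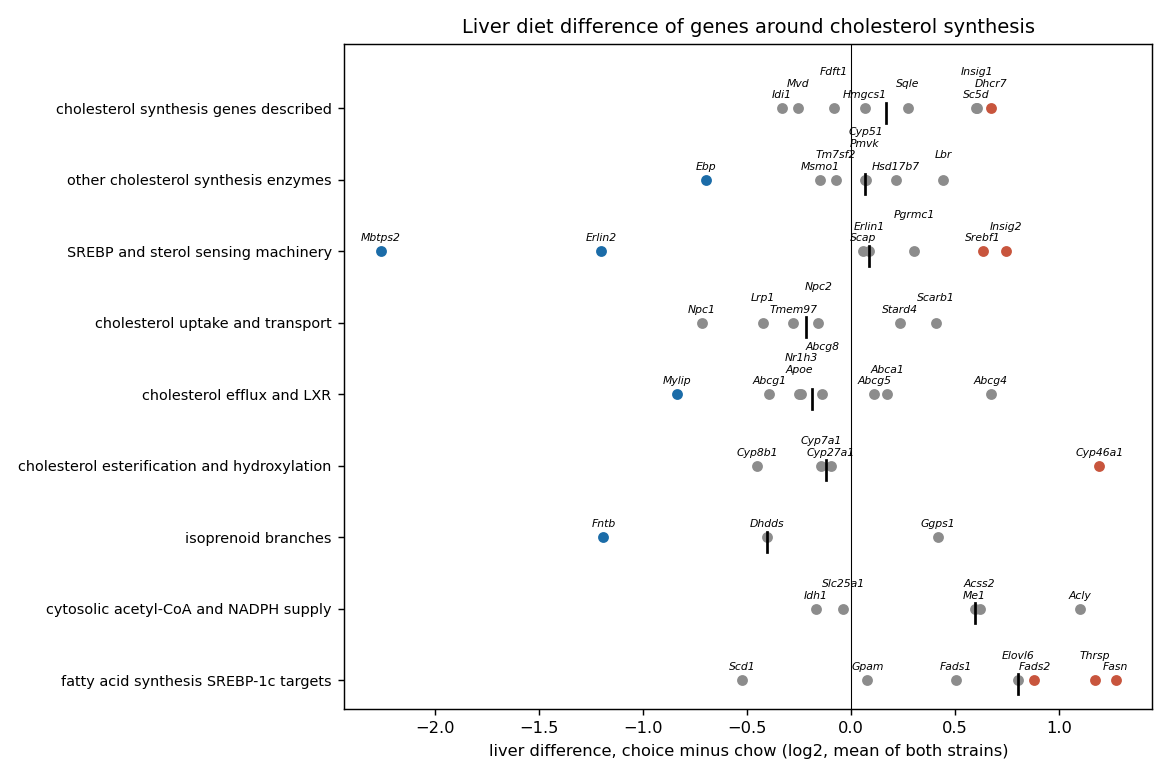
Liver diet difference, choice minus chow in log2 units and averaged over both strains, for each tested gene of the lists. Each point is a gene, red where it was at least 1.5-fold higher in both strains, blue where it was at least 1.5-fold lower in both and grey otherwise, and black bars are list medians. The median is 0.17 for the 8 cholesterol synthesis genes and 0.80 for the fatty acid synthesis genes, and Insig1 and Sc5d lie near Srebf1 at 0.64.

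Markers of other cells moved with the liver diets. The 5 measured macrophage markers of 8 listed, all above the filter level on every liver array, summed to 16.50 and 16.58 on chow and to 15.25 and 14.98 on choice. The 6 endothelial markers of 6 summed to 15.88 to 15.99 on chow and 15.60 to 15.65 on choice. Among the 5 tested, 3 were lower in both strains, as were 30.9% of all probes tested, and 2 were split. Of the blood markers Hba-a1 was lower on choice in both strains (-1.27) and Alas2 higher (0.23). The summed hepatocyte markers overlapped between diets, at 21.77 and 22.38 on chow and 21.90 and 22.36 on choice. The part of these changes in the differences above was not tested, and fewer cells of a type cannot be told apart from less RNA per cell.

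Between strains in liver, most of the 8 genes were higher in the congenic pools and Insig1 was lower. Hmgcs1, Mvd, Idi1, Sqle, Sc5d and Dhcr7, 6 of 8, were higher on both diets by their brightest probes, as were 28.1% of all probes tested. For Idi1 the other probe did not share that direction. Fdft1 was split between the diets. The median difference, congenic minus B6, was 0.35, against 0.01 over all probes. limma called 0 of 19807 probes, or 0% (lowest adjusted p 0.217, with 1318 under 0.05 before adjustment). Only Dhcr7 was at least 1.5-fold higher on both diets (background 4.18%) and no member was that much lower on both (background 7.03%).

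Sqle had the lowest adjusted p of the 8 for strain. Its levels given above were 14.99 and 15.15 in B6 and 15.37 and 15.75 in congenic livers, and the strains did not overlap. The difference was 0.49 ± 0.18 SE (95% interval 0.09 to 0.90, adjusted p = 0.697), with 0.38 on chow and 0.61 on choice. Hmgcs1 was also apart by strain, at 16.94 and 17.03 in B6 and 17.27 and 17.31 in congenic livers. Its difference was 0.31 ± 0.15 SE (adjusted p = 0.801). Mvd differed by 0.53 ± 0.30 SE, more on choice (0.72) than on chow (0.34), and Dhcr7 by 0.85 ± 0.67 SE.

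Idi1 differed by 0.39 ± 0.21 SE with its brightest probe and by -0.07 with the other. Sc5d differed by 0.14 ± 0.15 SE and Fdft1 by 0.03 ± 0.15 SE. Insig1 was the member lower in congenic livers on both diets, with -0.32 on chow and -0.27 on choice (mean -0.29 ± 0.16 SE, adjusted p = 0.816). Srebf1, which had the same order over the 4 livers, differed by -0.27 ± 0.15 SE, and Insig2 by -0.41 ± 0.20 SE. With the 4 liver arrays alone no member passed, although limma then called 252 probes, 1.27% of those tested. The summed hepatocyte markers were higher in the congenic pool on each diet, by the values given above. Of the 4 tested, 2 were higher on both diets, as were 28.1% of all probes tested, and 2 were split. All 4 neuron markers tested were lower in the congenic pool on each diet, as were 28.7% of all probes tested, with a median of -0.75. Of these, Avp (8.36 to 10.11) and Oxt (8.65 to 10.77) lay near the filter level of 9.04. The part of either list in these differences was not tested.

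In hypothalamus, Insig1, Mvd and Hmgcs1 were lower on choice under the normalization used here, and other scalings turned these signs. Sc5d, Fdft1, Dhcr7 and the brightest Idi1 probe had a mean difference above 0 under all 4 scalings, although Dhcr7 was split between the strains. The other Idi1 probe differed by -0.15 under the normalization used here. limma called 97 probes, 0.490% of those tested, and no member. Before adjustment 5 of the 8 genes were under 0.05, as were 20.9% of all probes tested. The median difference of the 8 was 0.11, against 0.07 over all probes. Insig1 alone was at least 1.5-fold lower in both strains (background 9.49%), and none was that much higher in both (background 12.4%).

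Insig1 read 14.79 in B6 and 14.84 in congenic hypothalamus on chow, and 13.88 and 14.07 on choice. Both choice pools were the lower ones. The difference was -0.84 ± 0.16 SE (95% interval -1.20 to -0.48, adjusted p = 0.0566). With the 4 hypothalamus arrays alone it passed (adjusted p = 0.0153), in a fit that called 296 probes lower, 1.49% of those tested. As deposited, the same 4 values were 13.71, 13.77, 14.98 and 15.16, a difference of 1.33 in the other direction. The median of all probes lay 1.26 higher on choice in the deposited values, and relative to that median Insig1 differed by 0.08.

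Sc5d read 13.87 and 13.90 on chow and 14.32 and 14.26 on choice, with no overlap and a difference of 0.41 ± 0.15 SE (adjusted p = 0.182). Sc5d was thus higher on choice in both tissues, and kept that sign in hypothalamus with median centring (1.35) and as deposited (2.60). Both of these scalings gave every member a higher value than quantile normalization did, so they could not have turned a sign above 0. Mvd read 13.37 and 12.93 on chow and 12.31 and 12.44 on choice. Its choice pools were the lower ones, with a difference of -0.77 ± 0.30 SE (adjusted p = 0.190), but median centring gave 0.25. Hmgcs1 read 17.10 and 17.09 on chow and 16.60 and 16.82 on choice, a difference of -0.38 ± 0.15 SE that turned to 0.33 with median centring.

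Sqle read 15.46 and 15.83 on chow and 15.68 and 15.60 on choice (-0.01 ± 0.18 SE), and Fdft1 15.50 and 15.37 on chow and 15.73 and 15.59 on choice (0.22 ± 0.15 SE). Idi1 differed by 0.51 ± 0.21 SE with its brightest probe, 0.92 in B6 and 0.11 in congenic pools, and by -0.15 with the other. Its brightest probe read 13.54 and 14.11 on chow and 14.46 and 14.22 on choice, and the B6 chow pool was the low one.

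With median centring, limma called Sc5d, Idi1 (1.45), Fdft1 (1.05) and Sqle (0.82) higher on choice, 4 of the 8 genes, in a fit that called 36.2% of all probes higher. As deposited it called all 8 higher, with 74.7% of all probes.

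**Figure D4:**
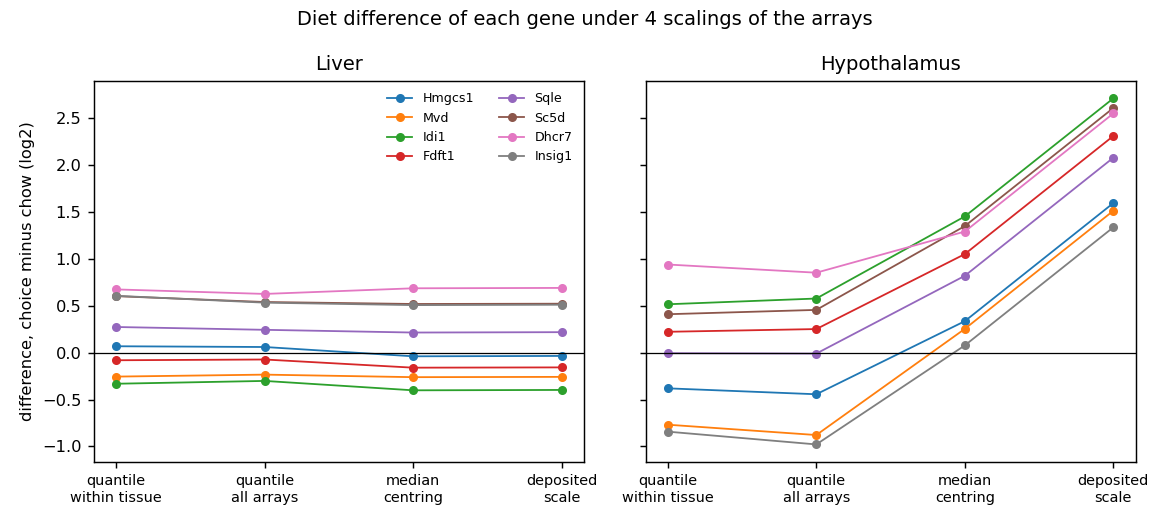
Diet difference of each gene, choice minus chow in log2 units, under 4 ways of scaling the arrays. In liver the 8 lines are nearly flat and Hmgcs1 alone crosses 0. In hypothalamus all 8 differences are positive as deposited, from 1.33 to 2.71, and Insig1, Mvd, Hmgcs1 and Sqle are below 0 after quantile normalization.

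Markers of glia also differed between the hypothalamus diets on this scale, and some endothelial markers did. The 6 measured oligodendrocyte and myelin markers of 10 listed, all above the filter level on each hypothalamus array, summed to 16.96 and 17.26 on chow and to 18.11 and 17.76 on choice. Of the 4 measured astrocyte markers of 7, Slc1a3 was higher in both strains (1.09), Aldh1l1 lower in both (-0.24) and 2 were split. Of 5 endothelial markers tested, 3 were at least 1.5-fold higher in both strains, as were 12.4% of all probes tested, and the median difference was 1.23. Their part in the differences was not tested. The chow pair of hypothalamus pools also stood apart: the strain difference of all probes tested had an SD of 1.27 on chow and of 0.50 on choice.

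Dhcr7 showed that spread most among the 8 genes. It read 11.34 in B6 and 8.43 in congenic hypothalamus on chow, and 10.94 and 10.70 on choice. The congenic chow value lay under the filter level of 9.26, and the other 3 pools were at 10.70 to 11.34. The fitted diet difference of 0.94 ± 0.67 SE joined -0.40 in B6 with 2.28 in congenic pools. Without the congenic chow array it was -0.40.

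Between strains in hypothalamus, limma called 0 of 19807 probes, or 0% (lowest adjusted p 0.203, with 983 under 0.05 before adjustment). No member was at least 1.5-fold higher (background 2.58%) or lower (background 2.37%) on both diets. Dhcr7 differed by -1.57 ± 0.67 SE (adjusted p = 0.823), with -2.91 on chow and -0.24 on choice, so its size rested on the congenic chow array. The other 7 genes differed by -0.16 (Mvd) to 0.17 (Idi1). Sc5d was at -0.01 ± 0.15 SE, Hmgcs1 at 0.10 ± 0.15 SE, Insig1 at 0.12 ± 0.16 SE, Fdft1 at -0.13 ± 0.15 SE and Sqle at 0.15 ± 0.18 SE. One gene of the 8, Insig1, was higher on both diets and 2, Fdft1 and Dhcr7, lower on both, against 24.4% and 25.1% of all probes tested.

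Whether a difference was larger in liver than in hypothalamus was tested over the 15466 probes measured in both tissues. For diet, limma called 10 of them, 0.0647%, and no member. The Insig1 diet difference was 1.45 ± 0.21 SE higher in liver than in hypothalamus (95% interval 0.95 to 1.94, adjusted p = 0.0881). It was 0.19 ± 0.21 SE for Sc5d (95% interval -0.29 to 0.67) and 0.28 ± 0.25 SE for Sqle. For strain, 0 probes were called, or 0% (lowest adjusted p 0.796, with 836 under 0.05 before adjustment). The largest strain value among the 8 was that of Dhcr7, at 2.43 ± 0.96 SE (adjusted p = 0.796).

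Levels were also compared between the tissues, with quantile normalization over all 8 arrays and the 4 combinations of strain and diet as blocks, over 24148 probes. limma called 20.2% of them higher and 21.2% lower in liver. Sc5d, Insig1 and Idi1 were higher in liver, with the call held under all 4 scalings tried. Sc5d was at 14.01 to 14.51 in the hypothalamus arrays and at 16.86 to 17.53 in the liver arrays. The tissues did not overlap, and the difference was 2.96 ± 0.16 SE, or 7.76-fold (adjusted p = 7.06e-08). It ranged from 2.96 to 3.95 over the scalings.

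Insig1 was 1.59 ± 0.29 SE higher in liver, or 3.01-fold (adjusted p = 0.00102). The 4 matched differences were 1.01 and 0.66 on chow and 2.57 and 2.12 on choice. On this scale the gap was wider on choice in both strains, but with the deposited scale the diet difference in liver minus that in hypothalamus turned to -0.83 (limma, adjusted p = 0.00956). That fit called 10589 of the 15466 probes tested. Idi1 was 1.47 ± 0.23 SE higher in liver (adjusted p = 0.000298), and its other probe gave 1.38.

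Sqle and Hmgcs1 were lower in liver in this fit, with differences of -0.99 ± 0.18 SE (adjusted p = 0.000947) and -0.79 ± 0.17 SE (adjusted p = 0.00345). With quantile normalization within each tissue Sqle differed by -0.33 and did not pass (adjusted p = 0.168), and Hmgcs1 turned to 0.23 (adjusted p = 0.293). Without a variance trend Hmgcs1 also missed the threshold (adjusted p = 0.0691). The Fdft1 difference was -0.07 ± 0.17 SE, and 0.68 within tissues (adjusted p = 0.00570). Dhcr7 differed by 1.37 ± 0.55 SE (adjusted p = 0.0710) and Mvd by -0.45 ± 0.28 SE (adjusted p = 0.232). Of the other synthesis enzymes, 5 of 7 passed as higher in liver and 0 as lower. Ebp, at 4.27 ± 0.44 SE, and Tm7sf2, a sterol reductase, at 3.28 ± 0.19 SE, had the widest gaps of that list. Srebf1 was higher in liver by 1.16 ± 0.19 SE (adjusted p = 0.000479) and Insig2 by 1.31 ± 0.22 SE (adjusted p = 0.000514).

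The distance of each of the 8 genes from their own mean over the arrays was also taken. With levels centred within each tissue, the distance of a member from the members' mean, as a root mean square over the 8 arrays, was 0.17 for Fdft1, 0.17 for Hmgcs1, 0.19 for Sqle and 0.23 for Sc5d. It was 0.34 for Mvd, 0.34 for Idi1, 0.41 for Insig1 and 0.78 for Dhcr7. The median distance over 8188 genes compared was 0.42, and all members but Dhcr7 lay below it. The 5 genes outside the list that lay nearest to that mean were Gin1, Pcmtd1, Mrpl50, Rbfa and Ddc, at 0.06 to 0.08, nearer than any member. The mean itself stayed between -0.24 and 0.26 on every array, so any gene that varied little lies near it. Each member is also part of that mean. The distances therefore cannot tell whether the 8 genes share a pattern.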

How the data were processed

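Each sample's group was read from its title. The characteristics match the titles, while some free-text descriptions contradict them. Per the labels' protocols, 1 microgram of total RNA was turned into digoxigenin-labelled cRNA for each array. The values that the authors deposited are linear probe intensity for 33012 probes. How they corrected and normalized them is not given in the sources used here.

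Intensities were put on a log2 scale. Quantile normalization ran over each tissue's 4 arrays, or over all 8 for the tissue difference. The table listed 14411 probes with 1 gene symbol and 247 with several, and 18354 were unnamed here. Probes at or above the 40th percentile of mean level in a tissue were tested, at 9.26 in hypothalamus and 9.04 in liver.

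Models were fitted with limma 3.58.1 (R 4.3.3), using lmFit and a trended eBayes. Terms for tissue, and for strain and diet in each tissue, over all 8 arrays left 2 residual degrees of freedom. The tissue difference used 4 blocks and had 3. P-values were adjusted by Benjamini-Hochberg over all probes tested. Alternatives were other scalings, filters and variance models, each tissue alone, each array left out and other probes.

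The members and lists were chosen with earlier results of these data known. From each list, up to 3 tested genes with the largest liver diet difference of 1 sign in both strains were named, beside Srebf1, Insig2 and Cyp51. Tm7sf2, Scap, Scd1 and the cell markers Hba-a1, Alas2, Slc1a3, Aldh1l1, Avp, Oxt and Snap25 were named after their values were seen.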

Additional observations from a re-analysis of the deposited data

Results flagged for a closer look

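For 6 differences among the 8 genes, every pair of pools went one way in liver and the other way in hypothalamus, with quantile normalization within a tissue. The share of all probes with such opposite signs was not counted, so the 6 have no background. For diet, 29.3% of probes tested in liver were higher in both strains and 30.9% lower, and in hypothalamus 33.6% and 29.7%. For strain the shares were 28.1% and 28.7% in liver, and 24.4% and 25.1% in hypothalamus. None of the 6 differences between tissues passed in limma with all 8 arrays, and 3 passed when a hypothalamus array was left out, as given below under the processing. As deposited, the diet values of Insig1, Hmgcs1, Idi1 and Fdft1 all passed in limma, at -0.825, -1.627, -3.104 and -2.463 (adjusted p 9.69e-05 to 0.00956). That fit called 10589 of the 15466 probes tested, 10573 of them below 0. With median centring those of Idi1 and Fdft1 passed in limma, at -1.851 and -1.209 (adjusted p 0.00729 and 0.00865). That fit called 3940 probes, 3827 of them below 0. For diet, Insig1 was higher on choice in both strains in liver and lower in both in hypothalamus, a difference of 1.45 between the tissues (adjusted p = 0.0881). Hmgcs1 had the same signs at 0.447 (adjusted p = 0.356). Idi1, with its brightest probe, and Fdft1 had the opposite signs, at -0.846 (adjusted p = 0.25) and -0.303 (adjusted p = 0.497). For strain, Insig1 was lower in congenic livers and higher in congenic hypothalamus, at -0.415 (adjusted p = 0.796), and Dhcr7 the reverse, at 2.43 (adjusted p = 0.796), which rests on its congenic chow hypothalamus value. The deposited scale turns the Insig1 and Hmgcs1 diet values, and diet cannot be told apart from scaling in hypothalamus.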

How the results depend on the processing

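Signs in liver were stable for most of the 8 genes and signs in hypothalamus diet differences were not. With the deposited scale, the liver diet difference of Hmgcs1 became -0.036, the hypothalamus diet differences of Insig1, Hmgcs1, Sqle and Mvd became 1.333, 1.591, 2.074 and 1.509, their diet by tissue values became -0.825 for Insig1 and -1.627 for Hmgcs1, and the tissue differences of Hmgcs1 and Fdft1 became 0.222 and 0.688. With median centring the same values were -0.040 for Hmgcs1 in liver, 0.076, 0.334, 0.817 and 0.252 for Insig1, Hmgcs1, Sqle and Mvd in hypothalamus, -0.374 for Hmgcs1 by tissue, and 0.526 and 0.992 for the tissue differences of Hmgcs1 and Fdft1. Quantile normalization within tissues gave 0.233 and 0.680 for those tissue differences. The other Idi1 probe gave 0.017 for diet and -0.069 for strain in liver, -0.151 for diet in hypothalamus and 0.167 for diet by tissue.

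Counts of probes called moved more. For the hypothalamus diet difference (97 probes) they were 14862 as deposited, 7926 with median centring, 215 with quantile normalization over all arrays, 43 with the stricter filter, 0 without a variance trend (3367 under 0.05 before adjustment) and 753 with that tissue alone. For diet by tissue (10 probes) they were 10589, 3940, 0 (2405 before adjustment), 2 and 0 (1969 before adjustment) in the same order, without the last. The tissue alone gave 639 for liver diet, 252 for liver strain and 21 for hypothalamus strain, where the deposited scale and median centring gave 1 each. The tissue difference fell from 9997 to 5974 as deposited.

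Leaving out each array in turn, the counts ran from 9 to 258 for liver diet, 10 to 78 for liver strain, 25 to 1714 for hypothalamus diet, 0 to 1376 for hypothalamus strain, 4 to 1292 for diet by tissue and 3 to 810 for strain by tissue. Beyond what limma draws from all probes, such a fit takes its error from the other tissue alone. Values that changed sign ran from -0.017 to 0.066 for Fdft1 liver strain, -0.161 to 0.007 for Fdft1 between tissues (a matched pair left out), -0.401 to 2.275 for Dhcr7 and -0.230 to 0.216 for Sqle in hypothalamus diet. In hypothalamus strain they ran from -0.236 to 0.575 for Idi1, -0.073 to 0.373 for Sqle, -0.439 to 0.126 for Mvd, -0.057 to 0.035 for Sc5d and -0.015 to 0.215 for Hmgcs1. The Insig1 hypothalamus diet difference passed without any of 3 hypothalamus arrays, with an adjusted p of 0.0164 to 0.0474, but not without the B6 choice array, and with quantile normalization over all arrays (-0.978, adjusted p 0.0402). Idi1 passed there at 0.920 without either congenic array (adjusted p 0.0180 and 0.0201). Without a hypothalamus choice array, Dhcr7 passed for strain there at -2.912 (adjusted p 0.0301 and 0.0316) and for strain by tissue at 3.764 (0.0225 and 0.0238). For diet by tissue Insig1 passed without each hypothalamus array, at 1.376 to 1.515 (adjusted p 0.00397 to 0.0110), and Idi1 without either congenic one, at -1.252 (0.0115 and 0.0136). Causes of these changes beyond the error used were not tested.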
